A study of Mus musculus with 6 samples.

Results

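The genes described here write, maintain and remove DNA methylation: the methyltransferases *Dnmt1*, *Dnmt3a* and *Dnmt3b*, the maintenance factor *Uhrf1*, the dioxygenases *Tet1*, *Tet2* and *Tet3*, and the isocitrate dehydrogenases *Idh1* and *Idh2*. They were taken by symbol, all 9 of them, from the 55367 genes of the deposited expression table. RNA-seq libraries had been made from leukemia stem cells (LSCs, sorted as Lin- Sca-1- c-Kit+ CD16/32hi CD34+ YFP+) of mice with acute myeloid leukemia (AML), 3 libraries from WT and 3 from Piezo1cKO cells (Piezo1cko in the labels), to compare LSCs with and without the mechanosensitive ion channel PIEZO1. The leukemia had been started by a retrovirus carrying the MLL-AF9 fusion and YFP in lineage-negative bone marrow cells that were then transplanted into irradiated mice. Piezo1cKO cells carried Mx1-cre and Piezo1 fl/fl, WT cells carried Piezo1 fl/fl without Cre, both were from pIpC-treated mice, and the bone marrow was taken at 8 to 10 weeks of age. Floxed alleles, pIpC and the MLL-AF9 retrovirus were therefore shared by both groups, and Mx1-cre, an interferon-inducible Cre, differed along with the deletion, so that the effects of Cre and of the deletion cannot be told apart. It was not stated from which round of transplantation the LSCs came, nor whether the 3 libraries of a group came from separate mice, so p-values measure the spread between these libraries, which may be technical.

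DNMT1 copies CpG methylation onto the new strand behind the replication fork, and UHRF1 recruits it by binding hemimethylated CpGs. DNMT3A and DNMT3B place methylation on unmethylated sites. The TET enzymes oxidize methylcytosine to hydroxymethylcytosine and beyond, with α-ketoglutarate as co-substrate, which IDH1 in the cytosol and IDH2 in mitochondria produce. *DNMT3A*, *TET2*, *IDH1* and *IDH2* are recurrently mutated in human AML. The libraries measured RNA, and DNA methylation itself was not analysed here.

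The maintenance pair *Dnmt1* and *Uhrf1* fell in Piezo1cKO LSCs to 73.3% and 71.3% of their WT levels, *Tet2* and *Tet3* rose to 131% and 139%, *Dnmt3a* and *Idh2* rose to 115% and 111%, and *Tet1*, the least abundant of the 9, fell to 72.9%. *Dnmt3b* and *Idh1* did not pass the test. Of the 9 genes, 7 passed an adjusted p under 0.05 on the deposited values (limma), against 63.0% of all 16746 genes tested. Rises were 4 of the 9, against 31.6% of all genes, and falls were 3, against 31.4%. The share of the 9 genes that passed was thus near that of all genes, and what follows describes direction and size. None of the 9 also passed an absolute log2 fold change over 1 on the deposited values, which 0.818% of all genes did; these values are shrunken, so that their fold changes understate those of the reads.

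The promoters of 4 genes are shown because *Dnmt1* and *Uhrf1* moved together in one direction and *Tet2* and *Tet3* in the other. RefSeq windows (GRCm38.p6) of 250 bases before to 50 after a transcription start were found for all 9 genes, 15 windows in all, and are given 5′ to 3′ on the strand of the gene. Capitals mark the E2F motif, searched as TTTGGCGC, TTTCCCGC, TTTGCCGC or TTTCGCGC on both strands; E2F factors drive genes needed for DNA synthesis. The *Dnmt1* window is chr9:20952574-20952873 (minus strand), that of *Uhrf1* chr17:56304063-56304362 (plus strand), that of *Tet2* chr3:133544341-133544640 (minus strand) and that of *Tet3* chr6:83441629-83441928 (minus strand).
Dnmt1: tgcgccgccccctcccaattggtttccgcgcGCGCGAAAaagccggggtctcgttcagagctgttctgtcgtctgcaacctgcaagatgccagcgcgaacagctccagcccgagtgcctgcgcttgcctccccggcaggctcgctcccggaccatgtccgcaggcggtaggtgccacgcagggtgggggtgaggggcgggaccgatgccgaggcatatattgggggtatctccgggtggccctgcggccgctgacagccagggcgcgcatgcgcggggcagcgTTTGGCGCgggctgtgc
Uhrf1: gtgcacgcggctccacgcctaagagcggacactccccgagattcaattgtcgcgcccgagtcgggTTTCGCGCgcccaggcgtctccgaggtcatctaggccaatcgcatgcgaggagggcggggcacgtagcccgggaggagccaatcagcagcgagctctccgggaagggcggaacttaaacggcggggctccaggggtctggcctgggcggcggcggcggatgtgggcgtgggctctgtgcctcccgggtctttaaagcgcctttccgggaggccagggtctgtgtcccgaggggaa
Tet2: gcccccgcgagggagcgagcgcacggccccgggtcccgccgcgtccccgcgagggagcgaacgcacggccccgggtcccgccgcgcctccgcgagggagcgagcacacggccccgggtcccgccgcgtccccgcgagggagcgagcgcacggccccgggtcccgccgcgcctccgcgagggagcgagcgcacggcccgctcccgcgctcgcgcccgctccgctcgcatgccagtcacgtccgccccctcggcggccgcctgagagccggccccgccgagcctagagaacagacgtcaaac
Tet3: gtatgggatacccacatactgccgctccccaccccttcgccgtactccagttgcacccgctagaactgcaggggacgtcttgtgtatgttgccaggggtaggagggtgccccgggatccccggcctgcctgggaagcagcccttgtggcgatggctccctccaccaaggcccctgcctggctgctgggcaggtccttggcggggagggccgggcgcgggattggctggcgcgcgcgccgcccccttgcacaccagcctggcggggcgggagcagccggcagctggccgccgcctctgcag
The *Dnmt1* window held 2 motifs, TTTCGCGC on the opposite strand from base 32 and TTTGGCGC from base 284, and the *Uhrf1* window held TTTCGCGC from base 66. Of the 9 genes these were the 2 with a match in any window, and the other windows of *Dnmt1* (2) and *Uhrf1* (1) held none. Among all genes with a window, 704 of 27025 had a match (2.60%), and among all windows 744 of 32851 (2.26%). CpG dinucleotides numbered 33 in each of the *Dnmt1* and *Uhrf1* windows shown, 57 in that of *Tet2* and 22 in that of *Tet3*, against a median of 7 over all windows. The windows not shown held fewer, 2 and 12 for *Dnmt1* and 12 for *Uhrf1*. Each motif searched contains a CpG, and the shares of windows and genes with a match were not compared at like CpG content. A match of letters is a description and not a binding site.

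The deposited values were log2 values shrunken by a regularized log, a transform that pulls values toward the mean of their gene, most strongly with few reads. They were turned back into reads, 14112090 to 15483403 per library, and normalized reads below are recovered reads divided by the size factor of the library. The targeted gene came down: *Piezo1* had 101, 92.8 and 109 normalized reads in the WT libraries and 36.6, 56.5 and 45.8 in the Piezo1cKO libraries, 45.9% of the WT mean (log2 fold change -0.29, limma, adjusted p = 5.80e-06; on recovered reads -1.14). *Ctu2* on the opposite strand shares 24.6% of the exonic bases of *Piezo1*, and the kit did not keep strand. Genes of the LSC gate (*Kit*, *Cd34*, *Fcgr3*, *Fcgr2b*) were high in every library, with summed normalized reads of 14962 to 15352 in WT and 15834 to 16722 in Piezo1cKO cells, but *Fcgr2b* fell to 48.1% of WT (limma, adjusted p = 1.29e-13), *Cd34* and *Kit* rose to 156% (adjusted p = 8.32e-12) and 136% (adjusted p = 8.42e-09), and *Fcgr3*, at 98.5%, did not pass. *Ly6a* (Sca-1), which the gate selects against, had 0 to 1.01 normalized reads in WT and 7.12 to 16.6 in Piezo1cKO libraries. All 4 T cell markers had at most 3 reads in each library. Other lineage markers moved with genotype: the summed reads of 4 neutrophil markers were 1961 to 1974 in WT and 230.0 to 245 in Piezo1cKO libraries (*Ly6g* at most 3 reads), those of 4 mast cell or basophil markers 1994 to 2099 and 7645 to 7867, those of 4 dendritic cell markers 726 to 798 and 4299 to 4512, and those of 5 B cell markers 12200 to 12558 and 22314 to 22713, with *Ms4a1* at most 3 reads. Sums over 4 macrophage markers overlapped, 1904 to 2073 and 1922 to 2001. Those of 3 NK cell markers were 3991 to 4173 in WT and 2472 to 2519 in Piezo1cKO libraries. Among these *Nkg7* gave nearly all of the sum (means of 4095 and 2457), and *Ncr1* had at most 3 reads. *Klrb1c* went the other way, with 0 reads in WT and 33.4 to 52.9 in Piezo1cKO libraries. Those of 4 erythroid markers were 88.3 to 103 and 22.4 to 33.1, and of 3 megakaryocyte markers 209 to 260 and 267 to 302. Of the latter, *Pf4* fell from a mean of 93.0 to 8.74, while *Itga2b* (135 to 269) and *Gp9* (2.97 to 7.70) rose. Sums over 3 stroma markers were 2894 to 2938 and 3438 to 3692, nearly all from *Pecam1* (means of 2892 and 3498). *Col1a1* had means of 1.66 and 0 normalized reads and *Cxcl12* of 15.5 and 29.8. The part of these markers in the results below was not tested. In bulk libraries, fewer cells of a type and less RNA per cell cannot be told apart.

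*Dnmt1* (chr9:20907209-20959888, minus strand, GENCODE M21 on GRCm38) had 2155, 2225 and 2130 normalized reads in the WT libraries and 1644, 1563 and 1567 in the Piezo1cKO libraries. Every WT library lay above every Piezo1cKO library, and the gap between the groups was several times the spread within either. The means were 2170 ± 49.4 and 1591 ± 46.0 (SD, n = 3 each). On the deposited values the log2 fold change was -0.31 (SE 0.029, limma, adjusted p = 3.11e-08), and on recovered reads it was -0.46 (95% confidence interval -0.54 to -0.38, limma-voom, adjusted p = 8.18e-08), which is 68.6% to 77.0% of the WT level.

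*Uhrf1* (chr17:56303321-56323486, plus strand), the partner that brings DNMT1 to replicating DNA, moved in the same direction as *Dnmt1*. The WT libraries had 3044, 3171 and 3007 normalized reads and the Piezo1cKO libraries had 2138, 2232 and 2207. The lowest WT library stood well above the highest Piezo1cKO library. With means of 3074 ± 85.8 and 2193 ± 48.5 (SD, n = 3), the log2 fold change was -0.35 on the deposited values (SE 0.027, limma, adjusted p = 3.39e-09) and -0.50 on recovered reads (-0.58 to -0.42, limma-voom, adjusted p = 1.29e-08). This was the largest absolute change of the 9 genes on both scales. Of 10246 genes averaging 50 or more normalized reads, 73.8% had a smaller absolute change on recovered reads than *Uhrf1* and 71.1% a smaller one than *Dnmt1*. The 3 tested genes whose centred deposited values over the 6 libraries lay closest to those of *Uhrf1* (Euclidean distance) were *Hnrnpul1* (0.018), which encodes an RNA-binding protein, *Rab20* (0.029), which encodes a small GTPase, and *Sdr42e1* (0.032). *Hnrnpul1* had 71.6%, *Rab20* 52.8% and *Sdr42e1* 57.8% of its WT mean.

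**Figure D1:**
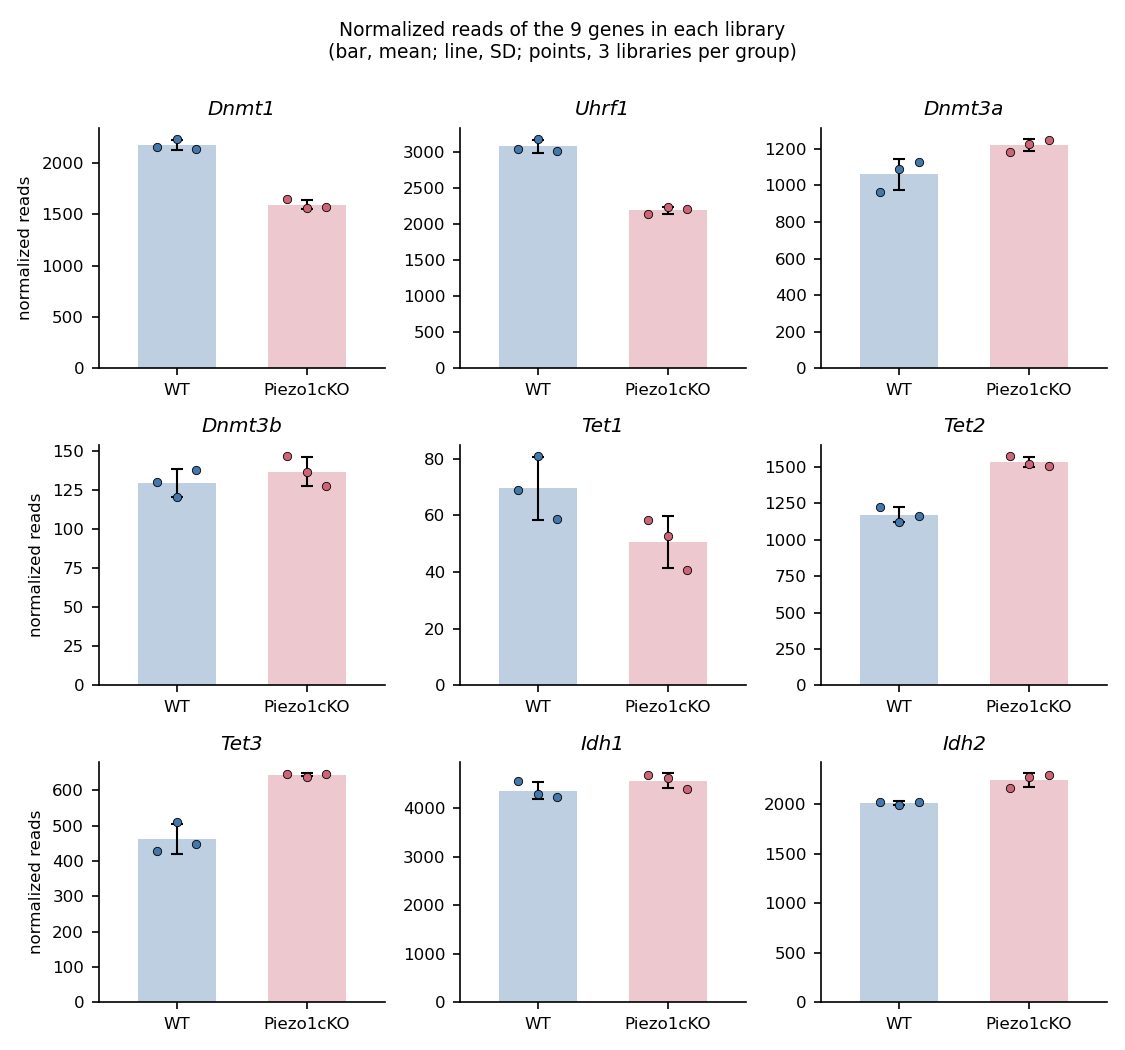
Normalized reads of each of the 9 genes (vertical axes, each from 0) in the 3 WT and 3 Piezo1cKO libraries; bars are means, lines SDs and points libraries. Points of the groups are apart for every gene but *Dnmt3b* and *Idh1*, and in *Tet1* the lowest WT library (58.7) stands just above the highest Piezo1cKO library (58.5).

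The de novo enzymes did not follow the maintenance pair. *Dnmt3a* (chr12:3806007-3914443, plus strand) had 966, 1088 and 1129 normalized reads in WT and 1184, 1226 and 1246 in Piezo1cKO libraries. The groups did not overlap, but the WT libraries were spread, and WT replicate 3 was close to the lowest Piezo1cKO library. The log2 fold change was 0.13 (SE 0.037, limma, adjusted p = 0.00377), or 0.19 on recovered reads (0.07 to 0.31, limma-voom, adjusted p = 0.00718). Without WT replicate 1, the lowest library, it was 0.12 on recovered reads and still passed. An antisense gene, *Dnmt3aos*, shares 133 exonic bases with it (0.799%). *Dnmt3b* (chr2:153649450-153687730, plus strand) was lower, with 130.0, 120 and 138 normalized reads in WT and 146, 136 and 127 in Piezo1cKO libraries, and the groups overlapped. Its log2 fold change of 0.03 did not pass the test (limma, adjusted p = 0.522), and the interval on recovered reads, 88.7% to 123% of the WT level, left room for a change in either direction.

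Among the oxidizing enzymes the abundant members rose and the rare one fell. *Tet2* (chr3:133463679-133545139, minus strand), which encodes the main TET enzyme of blood cells, had 1226, 1122 and 1165 normalized reads in WT and 1571, 1522 and 1504 in Piezo1cKO libraries. All Piezo1cKO libraries were above all WT libraries, with means of 1532 ± 34.9 and 1171 ± 52.4 (SD, n = 3). The log2 fold change was 0.26 (SE 0.031, limma, adjusted p = 9.49e-07), or 0.37 on recovered reads (0.28 to 0.47, limma-voom, adjusted p = 3.19e-06). A gene on the opposite strand, *Gm42567*, shares 43 of its exonic bases (0.255%). *Tet3* (chr6:83362373-83459084, minus strand) rose the most of the 9 genes. It had 428, 510 and 447 normalized reads in WT and 646, 638 and 646 in Piezo1cKO libraries, so that WT replicate 2 stood above the other WT libraries and the Piezo1cKO libraries were nearly level. From 462 ± 42.7 to 643 ± 4.28 (SD, n = 3), the log2 fold change was 0.29 (SE 0.039, limma, adjusted p = 3.97e-06), or 0.47 on recovered reads (0.33 to 0.61, limma-voom, adjusted p = 1.68e-05).

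*Tet1* (chr10:62804570-62908996, minus strand), the TET enzyme best known from embryonic stem cells, was counted with few reads: 71, 80 and 61 in the WT and 56, 54 and 40 in the Piezo1cKO libraries before scaling. After scaling these were 68.9, 80.7 and 58.7 against 58.5, 52.6 and 40.7, and the groups nearly touched. The call was weak, with a log2 fold change of -0.10 (SE 0.040, limma, adjusted p = 0.0325), or -0.47 on recovered reads with a wide interval (-0.86 to -0.07, limma-voom, adjusted p = 0.0404). It was lost in 11 of 22 alternative settings, among them leaving out WT replicate 1 (adjusted p = 0.0784), WT replicate 2 (0.161), Piezo1cKO replicate 2 (0.0625) or Piezo1cKO replicate 3 (0.156, limma). The direction was the same in all 22.

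The dehydrogenases that supply α-ketoglutarate changed little. *Idh1* (chr1:65158616-65186500, minus strand) had 4559, 4290 and 4220 normalized reads in WT and 4676, 4611 and 4389 in Piezo1cKO libraries. The groups overlapped, and the log2 fold change of 0.05 did not pass the test (limma, adjusted p = 0.134); the interval on recovered reads ran from 98.4% to 109% of the WT level. Without WT replicate 1, the highest WT library, the call passed (0.07, limma, adjusted p = 0.0379). *Idh2* (chr7:80094846-80115392, minus strand) had 2023, 1984 and 2021 normalized reads in WT and 2159, 2266 and 2287 in Piezo1cKO libraries. Here the WT libraries were close together and all below the Piezo1cKO libraries, and the log2 fold change was 0.11 (SE 0.028, limma, adjusted p = 0.00239), or 0.14 on recovered reads (0.06 to 0.22, limma-voom, adjusted p = 0.00346). Of the 10246 genes averaging 50 or more normalized reads, 29.0% had a smaller absolute change than *Idh2* and 10.8% a smaller one than *Idh1*.

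**Figure D2:**
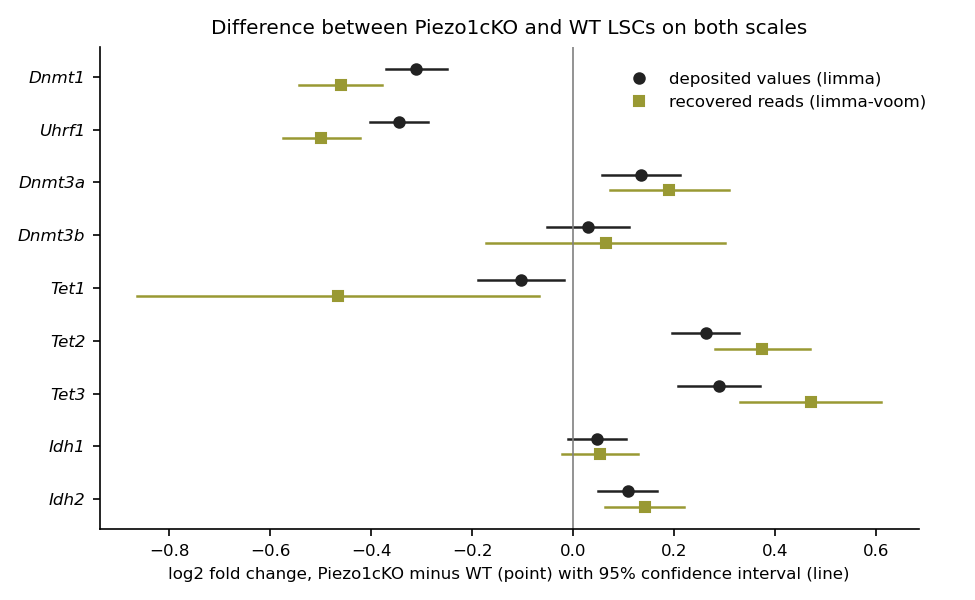
Log2 fold changes of the 9 genes, Piezo1cKO minus WT (horizontal axis), with 95% confidence intervals (lines), on the deposited values (circles, limma) and on recovered reads (squares, limma-voom). *Dnmt1*, *Uhrf1* and *Tet1* lie left of 0, *Tet2*, *Tet3*, *Dnmt3a* and *Idh2* right of it, the lines of *Dnmt3b* and *Idh1* cross 0, and that of *Tet1* on recovered reads is the widest, from -0.86 to -0.07.

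On recovered reads the same 7 genes passed (limma-voom), against 63.0% of 17352 genes tested. The 4 rises stood against 30.7% of all genes and the 3 falls against 32.3%. The groups did not overlap on the deposited values for 7 of the 9 genes, against 66.6% of all genes. The median absolute log2 fold change of all genes was 0.089 on the deposited values and 0.44 on recovered reads, and 9.84% of genes on the deposited values and 46.1% on recovered reads, genes with few reads included, had a larger absolute change than any of the 9. The shrinkage was visible in the genes themselves: the change of *Tet1* was -0.10 deposited and -0.47 recovered. That of *Uhrf1*, with many more reads, was -0.35 deposited and -0.50 recovered. *Idh1* was at 0.05 on both scales, but the fits scale libraries differently, with medians over all genes of 0.0006 and -0.013.

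Levels of different genes were compared as normalized reads per kb of exons. In WT LSCs the order was *Idh1* (1572 ± 64.7, SD, n = 3), *Idh2* (776 ± 8.51), *Uhrf1* (722 ± 20.1), *Dnmt1* (294 ± 6.69), *Tet2* (69.4 ± 3.11), *Dnmt3a* (63.8 ± 5.07), *Tet3* (27.7 ± 2.56), *Dnmt3b* (25.3 ± 1.72) and *Tet1* (4.49 ± 0.714). Maintenance genes were thus far above de novo and TET genes. Libraries of neighbours in this order overlapped for *Tet2* and *Dnmt3a* and for *Tet3* and *Dnmt3b*, and for no other neighbours. In Piezo1cKO LSCs the order was the same and no neighbours overlapped: *Tet2* (90.8 ± 2.07) had moved away from *Dnmt3a* (73.2 ± 1.93), *Tet3* (38.5 ± 0.257) from *Dnmt3b* (26.8 ± 1.87), and *Idh2* (865 ± 26.5) from *Uhrf1* (515 ± 11.4). The overlaps in WT rest on merged exons as length. These have 16870 bases for *Tet2* and 16642 for *Dnmt3a*, but the longest transcripts have 9179 and 9685. For *Tet3* and *Dnmt3b* they have 16695 and 5106, and the longest transcripts 10904 and 4320.

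**Figure D3:**
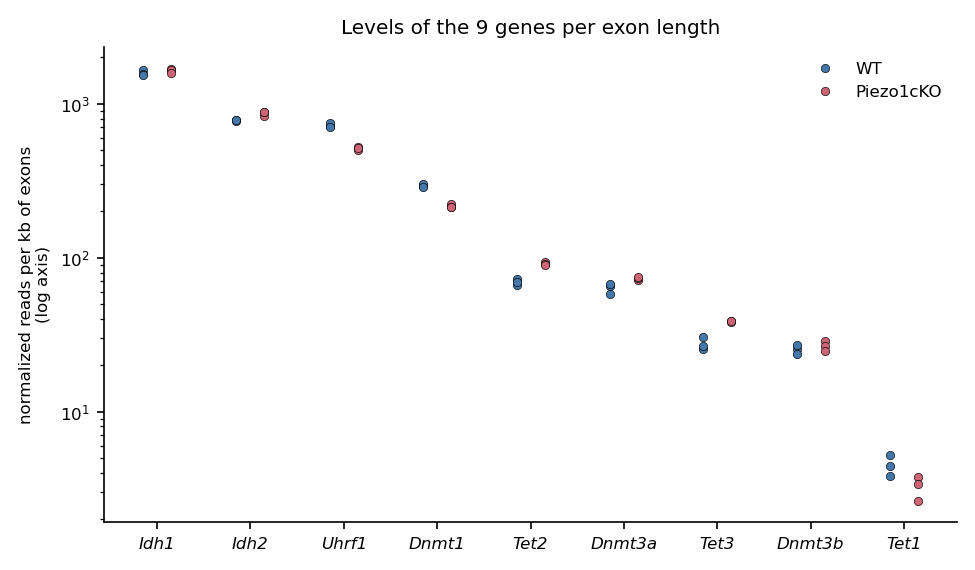
Normalized reads per kb of exons (log axis) of the 9 genes in order of their WT mean, with 1 point per library. The order is the same in both groups, from *Idh1* (1572 in WT) to *Tet1* (4.49 in WT), and in Piezo1cKO libraries the *Tet2* points lie clear of those of *Dnmt3a* and the *Tet3* points clear of those of *Dnmt3b*. Exons are merged over all transcripts, and the overlap of these pairs in WT rests on that length.

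Summed over each family, the methyltransferase level went from 383 ± 7.44 to 316 ± 6.02 reads per kb (82.4% of WT), the TET level from 102 ± 1.68 to 133 ± 2.64 (131%) and the *Idh1* and *Idh2* level from 2349 ± 68.2 to 2510 ± 37.5 (107%; SD, n = 3 each). The make-up of the families was also compared, as 7 shares, by a two-sided exact permutation test whose smallest p with 3 libraries against 3 is 0.1. The share of *Dnmt1* in the methyltransferase level was 77.8%, 77.2% and 75.3% in WT and 69.1%, 67.8% and 68.0% in Piezo1cKO libraries. That of *Dnmt3a* was 15.5%, 16.7% and 17.7% and then 22.0%, 23.6% and 24.0%, and that of *Dnmt3b* 6.61% ± 0.523 and then 8.47% ± 0.456 (SD, n = 3). Libraries of the groups did not overlap in any of these shares, nor in that of *Tet1* in the TET level, 4.42% ± 0.652 in WT and 2.46% ± 0.400 in Piezo1cKO cells (exact permutation p = 0.1, adjusted over the 7 shares 0.175, for each). Shares of one family add up to the whole and are not independent. The share of *Dnmt3b* rose although *Dnmt3b* itself, at 106% of WT, did not pass the test. *Tet2* held 68.4% ± 2.96 of the TET level in WT and 68.5% ± 0.191 in Piezo1cKO cells (exact permutation p = 1). Its difference of 0.116 percentage points turned to -1.54 without WT replicate 2. The share of *Tet3* was 27.2% ± 2.47 and 29.1% ± 0.572 (exact permutation p = 0.4), and that of *Idh2* in the dehydrogenase level was 33.1% ± 0.848 and 34.5% ± 1.37 (exact permutation p = 0.3).

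**Figure D4:**
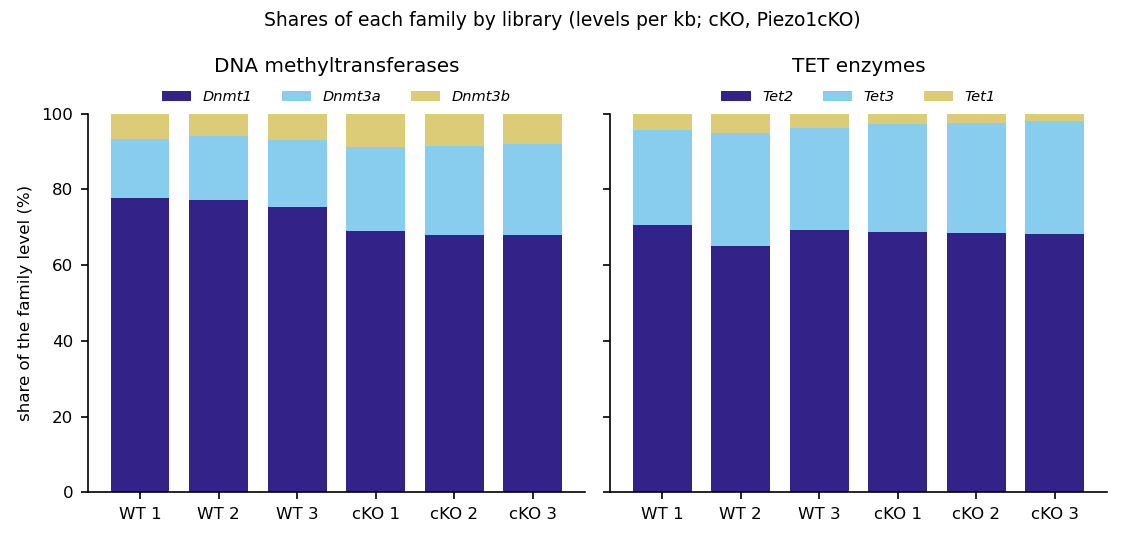
Share of each enzyme in the level of its family, in percent of the summed reads per kb, for each library (WT 1 to 3, then Piezo1cKO 1 to 3). The *Dnmt1* share is 75.3% or more in every WT library and 69.1% or less in every Piezo1cKO library, while the *Tet2* share lies between 65.0% and 70.7% throughout.

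The partners of these enzymes were read from lists written from general knowledge. In each list genes were counted as rising or falling at an adjusted p under 0.05 (limma, deposited values), and over all genes tested 31.6% rose, 31.4% fell and the median log2 fold change was 0.00. Of 9 partners of maintenance methylation, 3 rose, 1 fell and 5 did not pass, with a median of 0.07. *Pcna*, the sliding clamp of the replication fork, fell with *Dnmt1* and *Uhrf1* to 81.8% of WT (log2 fold change -0.21, limma, adjusted p = 1.87e-06). *Uhrf2*, the paralog of *Uhrf1*, went the other way, to 126% (0.15, adjusted p = 0.00371), as did *Smchd1*, a chromatin protein of the inactive X (113%, 0.12, adjusted p = 0.00490). *Hells*, the remodeller that opens DNA for methylation, was at 107% and did not pass (adjusted p = 0.0539).

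Of 8 partners of de novo methylation, 2 rose, 4 fell and 2 did not pass (median -0.02). *Dnmt3l*, the catalytically inactive cofactor of the DNMT3 enzymes, had 107, 94.9 and 122 normalized reads in WT and 60.6, 61.4 and 75.3 in Piezo1cKO libraries, and fell to 60.9% (-0.20, limma, adjusted p = 0.000299) where *Dnmt3a* rose. *Nsd2*, a histone H3K36 methyltransferase whose mark DNMT3A reads, fell to 74.8% (-0.28, adjusted p = 2.73e-07). *Setdb1*, an H3K9 methyltransferase, rose to 120% (0.15, adjusted p = 0.00197). Among 10 genes of families that read methylated CpGs, not all members of which bind them, 3 rose, 2 fell and 5 did not pass (median 0.00). The fallers were *Mbd3* (88.3%, -0.12, limma, adjusted p = 0.00476) and *Mbd6* (84.9%, -0.15, adjusted p = 0.00191). The risers were *Zbtb38* (123%, 0.22, adjusted p = 1.34e-08), *Zbtb4* (218%, 0.20, adjusted p = 0.000128, at 21.2 to 65.1 normalized reads) and *Mbd1* (121%, 0.19, adjusted p = 4.16e-06).

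Downstream of the TET enzymes, 14 of the 18 listed genes in the table were tested, and 4 rose, 4 fell and 6 did not pass (median 0.00). *Gadd45a*, a stress gene linked to active demethylation, had 357, 296 and 328 normalized reads in WT and 107, 112 and 106 in Piezo1cKO libraries (33.1%, log2 fold change -0.71, limma, adjusted p = 4.06e-11). Its relatives did not fall: *Gadd45g* rose to 175% (0.22, limma, adjusted p = 0.000719) and *Gadd45b*, at 113%, did not pass. *Tdg*, the glycosylase that excises the oxidized bases TET enzymes leave, fell to 85.3% (-0.16, adjusted p = 0.000459). *Xrcc1* and *Parp1*, which act in the base excision repair that follows, rose to 132% (0.23, adjusted p = 2.32e-05) and 127% (0.24, adjusted p = 1.93e-06). *Tdg* was named for its place in this pathway, and *Gadd45b* and *Gadd45g* as relatives of *Gadd45a*, after their values were seen. *Wt1*, a binding partner of TET2, was listed at 0 in all 6 libraries.

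Genes of the methyl donor cycle were 7 of 8 tested, of which 1 rose, 3 fell and 3 did not pass; the median was 0.04, on the other side of 0 from most of the changes, and without WT replicate 3 only 1 rise and 1 fall passed. *Ahcyl2* and *Ahcyl1*, relatives of the enzyme that clears S-adenosylhomocysteine, fell to 50.2% (-0.46, limma, adjusted p = 7.21e-09) and 87.0% (-0.10, adjusted p = 0.0374). *Ahcy*, which encodes that enzyme itself, fell to 89.0% (-0.098, limma, adjusted p = 0.0334). *Mat2b*, the regulatory subunit of S-adenosylmethionine synthesis, rose to 112% (0.12, adjusted p = 0.000430). Around *Idh1* and *Idh2*, 23 genes that make or use α-ketoglutarate or hydroxyglutarate were tested: 4 rose, 9 fell and 10 did not pass (median -0.01). The serine pathway genes *Phgdh* (45.0%, -0.83, adjusted p = 6.23e-14) and *Psat1* (70.3%, -0.36, adjusted p = 1.72e-09) fell, the latter encoding the aminotransferase that releases α-ketoglutarate, as did *Got1*, a cytosolic aspartate aminotransferase (68.5%, -0.33, adjusted p = 3.68e-07). *Phgdh* had 4797 to 5413 normalized reads in WT and 2255 to 2370 in Piezo1cKO libraries.

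**Figure D5:**
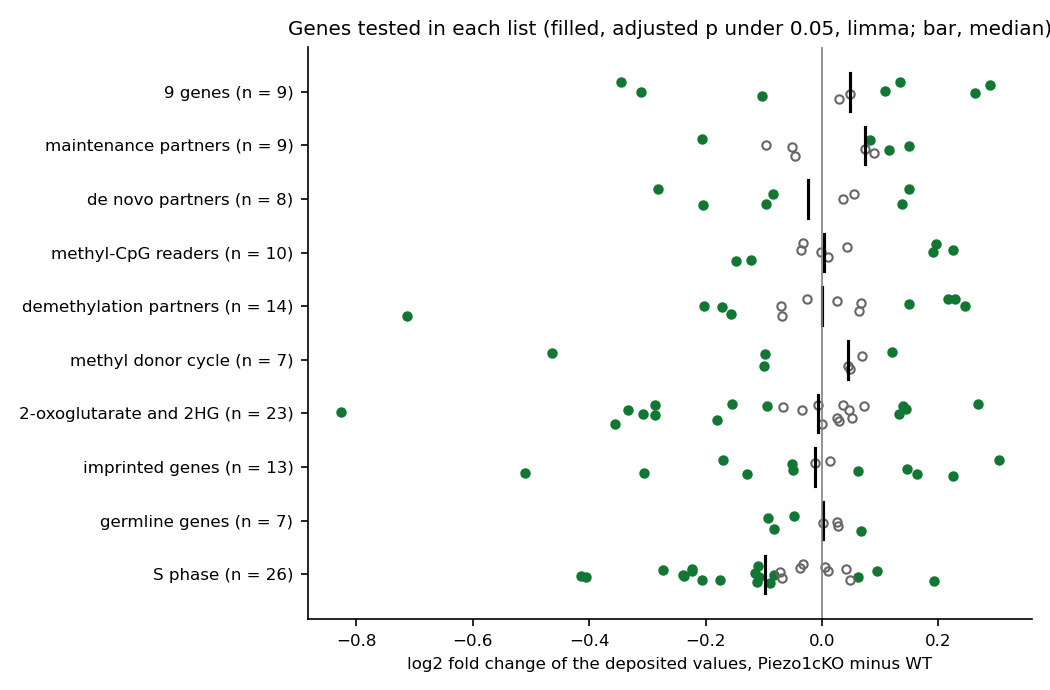
Log2 fold changes of the deposited values, Piezo1cKO minus WT (horizontal axis), for the 9 genes and for the genes tested in each list (rows); filled points passed an adjusted p under 0.05 (limma), open points did not, and bars are medians. The S phase list has the lowest median, -0.10, and single genes such as *Phgdh* (-0.83) and *Gadd45a* (-0.71) lie beyond any of the 9.

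Because *Dnmt1* and *Uhrf1* RNA is highest when DNA is copied, genes of S phase were set beside them. Of 26, 3 rose, 15 fell and 8 did not pass (median -0.10, limma), against 31.6% of all genes that rose and 31.4% that fell. The summed level of the list was 80707, 79237 and 80218 normalized reads in WT and 70536, 68939 and 69416 in Piezo1cKO libraries, 87.0% of the WT mean. *Pola1*, a subunit of the polymerase that primes synthesis, fell to 64.2% (-0.42, adjusted p = 1.55e-08), *Rrm2*, a subunit of ribonucleotide reductase, to 68.2% (-0.41, adjusted p = 5.02e-11), and *Mcm5*, a subunit of the replicative helicase, to 77.1% (-0.27, adjusted p = 1.10e-08). The remaining levels of *Dnmt1* (73.3%) and *Uhrf1* (71.3%) were below that of the list sum and between those of *Rrm2* and *Mcm5*. The E2F motif shown above in the *Dnmt1* and *Uhrf1* windows was in a window of 9 of the 20 S phase genes that had a window, against 2.60% of all genes with a window. Here too the genes compared were not matched for CpG content. The part of the S phase genes in the levels of *Dnmt1* and *Uhrf1* was not tested.

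Genes that methylation keeps silent in somatic cells were read last. Of 23 germline genes in the table, 8 had no read and 7 had over 3 reads in any library. Their summed normalized reads were 78.6, 112 and 98.1 in WT and 80.4, 86.8 and 67.2 in Piezo1cKO libraries, and the groups overlapped. Of the 7 tested, 1 rose, 3 fell and 3 did not pass (median 0.00, limma). *Tdrd1* had 7.76, 19.2 and 22.1 normalized reads in WT and 4.18, 0.975 and 6.11 in Piezo1cKO libraries (adjusted p = 0.00335), *Fkbp6* 14.6 to 20.2 and 4.07 to 12.7 (adjusted p = 0.00670), and *Brdt* 0.962 to 2.91 and 8.36 to 14.2 (adjusted p = 0.00148). All were near the floor of detection. Of 13 imprinted genes tested of 26, 5 rose, 6 fell and 2 did not pass (median -0.01). *Gnas*, which encodes a G protein subunit, fell to 33.6% (-0.51, limma, adjusted p = 2.66e-08) and *Cdkn1c*, an inhibitor of the cell cycle, to 15.4% (-0.31, adjusted p = 1.53e-07), whereas *Impact*, a regulator of translation, rose to 135% (0.30, adjusted p = 1.43e-07). Reads were not assigned to parental alleles.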

How the data were processed

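Per the labels and the methods, polyA RNA of sorted LSCs was made into Smart-seq2-based libraries, a type without molecular identifiers or strand. The authors used fastp (0.20.1), HISAT2 (2.2.1), GRCm38, featureCounts (2.0.1) and DESeq2 (1.28.1). The deposited table holds log2 values that have been through a regularized log. They span -1.97 to 18.06 in 26402 genes, and 28965 are listed at 0 in all 6 libraries. Counts had been planned for, but log2 values need a linear model. Genes with a mean of at least 1 were fitted with limma (3.58.1, R 4.3.3) with genotype alone in the design and a mean-variance trend in eBayes, with Benjamini-Hochberg adjustment over all genes. The transform was inverted by choosing size factors and shrinkage that made the values whole numbers; 92.1% of values of genes with a mean of at least 1 read came within 0.1 of one (22.0% with the shrinkage set 10% off), and the largest distance for the 9 genes was 0.12 (*Tet1*). Recovered reads of genes with at least 10 in total were fitted with limma-voom after TMM scaling. Both steps were tested on simulated data. Between libraries of one group, the median chi-square over 10246 genes (1 degree of freedom) was 0.677 to 1.02, and between groups 9.49 to 11.03, and no library was a repeat of another. Levels per kb used exons merged over all GENCODE M21 transcripts. Intervals are 95% confidence intervals. The genes named are the 9, *Piezo1*, the 3 of each list with the largest change among those past the test, and the 3 closest to the gene of the 9 that changed most. *Hells*, *Tdg*, *Gadd45b*, *Gadd45g*, *Mbd3*, *Mbd6* and *Ahcy* were added after their values were seen. The 9 genes and the lists were chosen with earlier results of these data known. Single values of some listed genes are not reported here.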

Additional observations from a re-analysis of the deposited data

How the results depend on the processing

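In all 22 alternatives *Dnmt1*, *Uhrf1*, *Tet2*, *Tet3*, *Dnmt3a* and *Idh2* kept their direction and passed, and *Dnmt3b* never passed. Leaving out each library in turn, on deposited values and then recovered reads, the log2 fold change ranged from -0.33 to -0.30 and from -0.48 to -0.44 for *Dnmt1*, from -0.36 to -0.33 and from -0.51 to -0.48 for *Uhrf1*, from 0.24 to 0.29 and from 0.35 to 0.41 for *Tet2*, from 0.26 to 0.33 and from 0.42 to 0.54 for *Tet3*, from 0.09 to 0.17 and from 0.12 to 0.24 for *Dnmt3a*, from 0.10 to 0.13 and from 0.13 to 0.17 for *Idh2*, from 0.01 to 0.05 and from 0.02 to 0.11 for *Dnmt3b*, from 0.031 to 0.071 and from 0.030 to 0.085 for *Idh1*, and from -0.13 to -0.074 and from -0.58 to -0.32 for *Tet1*; 6 or 7 of the 9 genes, 65 to 72 listed genes and 9596 to 10416 of all genes passed. Besides leave-outs, *Tet1* did not pass with no filter on low values (-0.10, limma, adjusted p = 0.0547), with library medians set equal (-0.081, 0.0875) or on recovered reads scaled to library totals (-0.43, 0.0540), and *Idh1* passed with medians set equal (0.070, limma, adjusted p = 0.0308) and with library totals (0.084, 0.0480); with medians set equal 6450 genes rose and 4214 fell in place of 5298 and 5258. The causes were not tested. The leave-outs and the block on recovered reads, unlike those on deposited values, were chosen after seeing the data. With the longest transcript as length, the share of *Dnmt3a* rose by 7.87 percentage points, that of *Tet1* fell by 1.23 and that of *Tet2* changed by -0.26 in place of 0.116; without 1 library the *Tet2* change ranged from -1.54 to 1.30. Same-numbered libraries of the groups were not stated to be paired, and their deviations correlated by 0.195, 0.161 and 0.0696, each library best with its own number; a fit with the replicate number as a block called 8 of the 9 genes, adding *Idh1* (0.047, limma, adjusted p = 0.0262), and 11055 of all genes. Depth limits *Tet1* and the germline genes, and the reads carry no molecular identifiers.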
